A study of Mus musculus with 4 samples.

Results

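Primitive endoderm lineage genes were examined in mouse embryonic stem cells (mESC) with and without induced loss of Ogt. The set held 10 genes given by symbol, out of 25239 gene symbols in the count tables, and all 10 symbols had a row in each table. It comprised the transcription factors Gata4, Gata6, Sox7, Sox17 and Foxa2, the endocytic adaptor Dab2, the laminin chains Lama1 and Lamb1, and the receptor subunits Cubn and Amn. The cells carried the genotype Ogt fl/fl in both groups, in which loxP sites flank the gene for O-GlcNAc transferase, the enzyme that attaches N-acetylglucosamine to serine and threonine residues. The Ogt iKO group (2 libraries) came from cells grown with 4-hydroxytamoxifen (4-OHT) for 6 days, and the control group (2 libraries) from cells of that genotype grown without it. Both were kept with LIF on mitomycin C-treated mouse embryonic fibroblasts, and viable cells were sorted before polyadenylated RNA was taken. The labels give CD90.2 as the stain that marked mESC and CD326 as the one that excluded feeders, whereas fibroblasts commonly carry CD90 and mESC carry CD326, so which cells the gate kept is uncertain. Only the 4-OHT cells were also selected for YFP, so 4-OHT, this selection and the loss of Ogt cannot be told apart. The labels do not say whether replicates came from separate cultures, so the p-values measure only the spread between these libraries, which may be technical.

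Primitive endoderm is the lineage that lines the inner cell mass of the blastocyst and later forms the parietal and visceral endoderm of the yolk sac. In the embryo FGF4 from epiblast precursors signals through FGF receptors to cells that switch on GATA6, which NANOG opposes. GATA4, SOX17 and SOX7 follow, and the cells then sort to the surface with DAB2, lay down a basement membrane rich in laminin and type IV collagen, and take up maternal nutrients through cubilin, amnionless and megalin. Embryonic stem cells in culture resemble the epiblast and hold only few cells of this kind.

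Total counts ran from 14668489 to 16504204 per library. Ogt itself had 25.6 and 25.1 CPM in the Ogt iKO libraries and 191 and 203 CPM in the controls (log2 fold change -2.96, edgeR adjusted p 2.49e-07), where CPM is counts per 1000000 counts after trimmed-mean (TMM) scaling. Stem cell markers were abundant in every library, with summed levels of the 10 listed genes of 4661 and 4690.0 CPM in the controls and 2699.9 and 3003 CPM in Ogt iKO. One library stood apart in its fibroblast markers. The summed level of the 20 listed markers was 3441 CPM in Ogt iKO replicate 1 and 1023 CPM in Ogt iKO replicate 2, against 1323 and 1506 CPM in the controls, and all 20 were higher in replicate 1 than in replicate 2.

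Promoter sequences are shown first, because the study concerned DNA methylation, which acts on CpG dinucleotides. RefSeq (GRCm38.p6) held windows for 5 of the 10 genes, namely Foxa2, Dab2, Lamb1, Cubn and Amn. The first 250 bases of each window, which lie before that window's own start, were compared with those of 32841 windows of all genes. In those the median number of CpG was 6 and the quartiles were 2 and 16. The outer start of Dab2 (chr15:6299539-6299788, plus strand) had 2 CpG, and an inner start of Dab2 had 17. The 3 starts of Foxa2 had 6, 20 and 13 CpG, and the one with 20 is chr2:148045949-148046198 (minus strand). Lamb1 had 14, Amn 11 (chr12:111270846-111271095, plus strand) and Cubn 2. Annotated exons cover 59 of the 250 bases of the Lamb1 window and 150 of the inner Dab2 window. Before those exons lie 10 of the 14 CpG of Lamb1 and 3 of the 17 CpG of the inner Dab2 start. The following lines show a CpG-poor and a CpG-rich start of genes that were higher in Ogt iKO, and the start of Amn, which did not pass the test. They read 5′ to 3′ on the gene's strand, with whole CpG in capitals. The Dab2 and Amn lines stop 1 base before the end of the window (at 6299787 and 111271094), where an annotated exon begins, so the Dab2 line holds 1 of its 2 CpG.
Dab2: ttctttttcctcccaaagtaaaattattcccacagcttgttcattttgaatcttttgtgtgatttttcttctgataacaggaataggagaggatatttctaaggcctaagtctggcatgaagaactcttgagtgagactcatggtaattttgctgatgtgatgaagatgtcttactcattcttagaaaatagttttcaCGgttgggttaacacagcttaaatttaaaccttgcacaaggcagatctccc
Foxa2: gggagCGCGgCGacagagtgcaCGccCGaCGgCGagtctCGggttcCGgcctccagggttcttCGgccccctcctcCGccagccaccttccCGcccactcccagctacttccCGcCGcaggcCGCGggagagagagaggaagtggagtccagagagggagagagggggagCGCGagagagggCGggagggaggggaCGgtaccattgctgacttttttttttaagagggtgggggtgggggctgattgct
Amn: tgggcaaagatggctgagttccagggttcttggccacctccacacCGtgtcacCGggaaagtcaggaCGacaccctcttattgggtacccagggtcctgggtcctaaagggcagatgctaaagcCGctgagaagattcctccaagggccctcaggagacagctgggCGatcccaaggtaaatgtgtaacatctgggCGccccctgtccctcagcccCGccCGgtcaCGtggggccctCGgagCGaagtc

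The 3 genes with a window that rose thus had starts both poor and rich in CpG, and the counts per gene do not say which start was used. The letters GATAA, the core bound by GATA factors, were searched on both strands. They occurred once in the outer Dab2 window (in the stretch printed above) and once in the third Foxa2 window, but 22.6% of all windows hold them. ACAAT, a core of SOX motifs, was in none of the members' windows and in 27.7% of all windows. TGTTTA, part of a forkhead motif, was in the inner Dab2 window alone and in 12% of all windows. ACAAT can share bases with TAAACA, the reverse complement of TGTTTA, and a match describes letters only.

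Of the 10 genes, 5 were called higher in Ogt iKO and 0 lower, at 0.05 on the adjusted p (edgeR's quasi-likelihood test, Benjamini-Hochberg over the 14525 genes tested). Sox17, Foxa2, Dab2, Gata4 and Lamb1 were the 5, with fitted rises from 1.97-fold (Lamb1) to 9.68-fold (Sox17, with 1 and 2 counts in the controls). Among all tested genes 33.2% were called higher and 32.0% lower, so with 65.3% of genes called in one direction or the other, single calls are common in these data. Of all called genes 50.9% were higher, and 65.1% with library totals in place of TMM, which moved the median of all genes from 0.024 to 0.19 and left the same 5 genes called, with Lama1 added (42.1% of all tested genes were then called higher). At least 2-fold rises were called for 4 of the 10 genes, against 14.9% of all tested genes. Among these 4, Sox17 and Foxa2 passed the filter on low counts only through the Ogt iKO libraries. They could enter the test only by being higher there, and they are also among the 5. The 10 genes were chosen with earlier results of these data known, so neither count tests the set. The median log2 fold change of the 10 was 0.98, beside 0.024 for all tested genes. The 2 groups did not overlap for 7 of the 10 genes, with Ogt iKO above in 5 and below in 2, while this held for 83.2% of all tested genes (42.3% above and 40.9% below). At an unadjusted p under 0.05 the counts were also 5 higher and 0 lower, where 34.8% of all tested genes were higher and 33.6% lower. DESeq2 called 5 higher and 0 lower, and of all genes 24.8% higher and 27.0% lower.

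**Figure D1:**
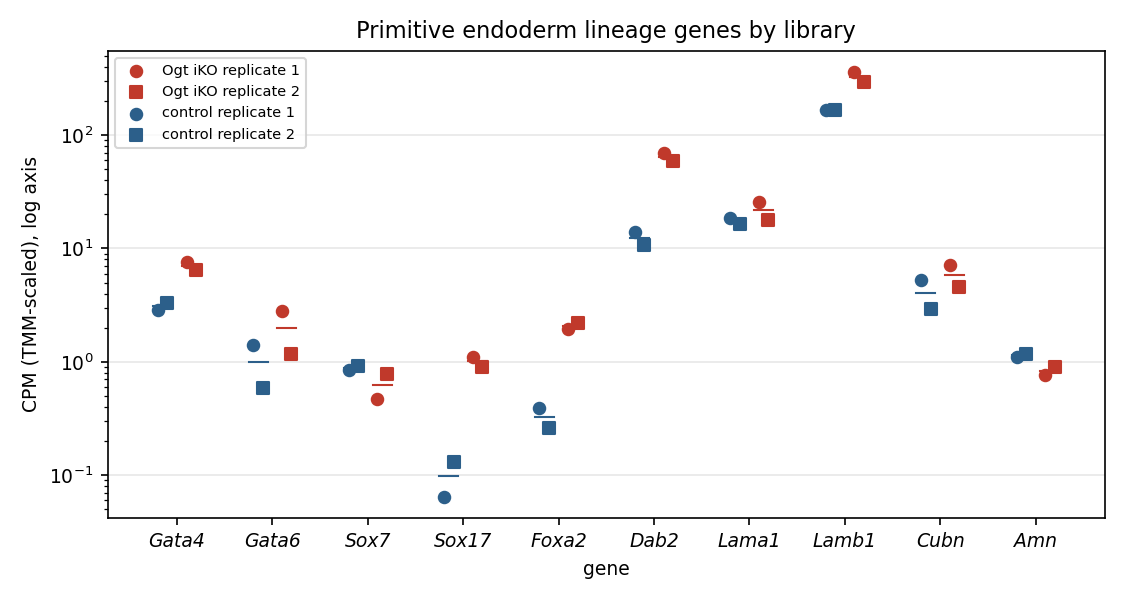
Level of each of the 10 genes in each library, in TMM-scaled CPM on a log axis, with horizontal lines at group means (n = 2). Sox17, Foxa2, Dab2, Gata4 and Lamb1 lie higher in both Ogt iKO libraries than in both controls, while Gata6, Lama1 and Cubn overlap.

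The GATA factors are taken first. Gata4 (chr14:63198914-63271712, minus strand, GRCm38) encodes a zinc finger factor of endoderm and heart. It had 129 and 101 counts in Ogt iKO replicates 1 and 2, beside 44 and 51 in the controls. In scaled units this was 7.55 and 6.51 CPM against 2.84 and 3.32 CPM, and both Ogt iKO libraries lay above both controls. The log2 fold change of Gata4 was 1.19 (SE 0.20, edgeR adjusted p 0.000993). Gata6 (chr18:11052510-11085636, plus strand), the earliest factor known to be needed for primitive endoderm, had 48 and 18 counts in Ogt iKO, compared with 22 and 9 in control. The groups overlapped, because Ogt iKO replicate 2 (1.16 CPM) lay below control replicate 1 (1.42 CPM). Its log2 fold change was 0.99, with a 95% interval from -0.18 to 2.16 and an edgeR adjusted p of 0.120. Gata6 was thus not called, though the interval also holds a rise as large as that of Gata4. Its log2 fold change was 0.21 without Ogt iKO replicate 1, and without Ogt iKO replicate 2 it was 1.45 (edgeR adjusted p 0.00467). Without control replicate 1 it was 1.75 (edgeR adjusted p 0.0491) and without control replicate 2 it was 0.48.

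The paralogous SOX factors did not move alike. Sox17 (chr1:4490928-4497426, minus strand), a factor of primitive and definitive endoderm, had 19 and 14 counts in Ogt iKO, compared with 1 and 2 in control. The ratio of the summed counts, 33 against 3, was 10.4 after scaling, with an exact 95% interval from 3.26 to 53.0 that covers counting error only. Its fitted log2 fold change was 3.27 (SE 0.56, edgeR adjusted p 0.00101). This value depends on the prior count because the controls are near 0, and was 2.35 with a prior count of 2. Of the exon bases of Sox17, 16.8% lie under an exon of the opposite strand (Gm37587), and the strand that was counted is not given in the sources used here, so its count is uncertain. Sox7 (chr14:63943706-63950732, plus strand), which acts beside SOX17 in parietal endoderm and vessels, had 8 and 12 counts in Ogt iKO, compared with 13 and 14 in control. Both Ogt iKO libraries lay just below both controls, at 0.468 and 0.774 CPM against 0.840 and 0.913 CPM. The log2 fold change of Sox7 was -0.51 (95% interval -1.43 to 0.42, edgeR adjusted p 0.301), so no change was detectable at this depth. It was -0.17 without Ogt iKO replicate 1 and -0.92 without Ogt iKO replicate 2, and not called in either fit. Per kb of exon, the level of Sox17 was 1.64 and 0.807 times that of Sox7 in the Ogt iKO libraries, and 0.0532 and 0.0988 times in the controls.

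Foxa2 (chr2:148042877-148046969, minus strand) encodes a forkhead factor of visceral and definitive endoderm. It had 33 and 34 counts in Ogt iKO, compared with 6 and 4 in control, or 1.93 and 2.19 CPM against 0.388 and 0.261 CPM. The Ogt iKO libraries differed little and lay well above both controls, with a log2 fold change of 2.64 (SE 0.38, edgeR adjusted p 0.000367). Foxa2 and Sox17 passed the filter on low counts only through the Ogt iKO libraries, so they could enter the test only by being higher there. Both stayed low in absolute terms, at 2.06 CPM ± 0.185 (SD, n = 2) for Foxa2 and 1.01 CPM ± 0.148 (SD, n = 2) for Sox17 in Ogt iKO, where a count of 0 allows up to 0.176 or 0.193 CPM (3 counts).

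Dab2 rose most among the called genes with over 40 counts in every library. The gene (chr15:6299788-6440715, plus strand) encodes a clathrin adaptor that carries receptors of the LDL receptor family, megalin among them, into the cell. It had 1195 and 912 counts in Ogt iKO, compared with 219 and 164 in control. These were 69.9 and 58.8 CPM against 14.1 and 10.7 CPM, so that the lower Ogt iKO library stood well above the higher control. The log2 fold change of Dab2 was 2.37 (SE 0.14, edgeR adjusted p 4.12e-06), a 5.18-fold rise. It was 2.25 without Ogt iKO replicate 1, the library with most fibroblast RNA.

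The laminin chains Lama1 and Lamb1 join with the gamma chain Lamc1 to form laminin-111, the main laminin of early basement membranes. Lamb1 (chr12:31265146-31329644, plus strand) had by far the highest level of the 10 genes, with 6172 and 4601 counts in Ogt iKO, compared with 2587 and 2555 in control. The controls were nearly equal at 167 CPM each, and the Ogt iKO libraries had 361 and 297 CPM. Its log2 fold change was 0.98 (SE 0.088, edgeR adjusted p 3.07e-05), and 0.84 without Ogt iKO replicate 1. Lama1 (chr17:67697127-67822645, plus strand) had 441 and 274 counts in Ogt iKO, compared with 286 and 250 in control. Only Ogt iKO replicate 1, at 25.8 CPM, was above both controls (18.5 and 16.3 CPM), since replicate 2 had 17.7 CPM. The log2 fold change of Lama1 was 0.32 (95% interval -0.074 to 0.72, edgeR adjusted p 0.132). It was 0.029 without Ogt iKO replicate 1 and 0.54 without Ogt iKO replicate 2 (edgeR adjusted p 0.00114). Scaled by library totals alone, Lama1 passed the threshold at 0.49 (edgeR adjusted p 0.0381). Lamc1, which is not among the 10, had a log2 fold change of -0.33 (edgeR adjusted p 0.00253), which was not past the threshold with library totals alone (-0.16). Per kb of exon, Lamb1 was at 0.644 and 0.565 of the Lamc1 level in the Ogt iKO libraries and at 0.257 and 0.234 in the controls. Lama1 was the least abundant of the 3 chains, at 0.0471 and 0.0345 of the Lamc1 level per kb in Ogt iKO and 0.0291 and 0.0234 in control.

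Cubilin (Cubn) and amnionless (Amn) form the cubam receptor, which visceral endoderm, kidney and gut use to take up protein-bound vitamins. Cubn (chr2:13276338-13491876, minus strand) had 122 and 71 counts in Ogt iKO, compared with 81 and 45 in control. The groups overlapped, and replicate 1 was the higher library in both. Its log2 fold change was 0.52 (95% interval -0.19 to 1.23, edgeR adjusted p 0.169). It was 0.17 without Ogt iKO replicate 1, without Ogt iKO replicate 2 it was 0.78 (edgeR adjusted p 0.0147), without control replicate 1 it was 0.99 (edgeR adjusted p 0.0367) and without control replicate 2 it was 0.16. Amn (chr12:111271096-111276426, plus strand) had 13 and 14 counts in Ogt iKO, compared with 17 and 18 in control. Both Ogt iKO libraries were lower, at 0.760 and 0.903 CPM against 1.10 and 1.17 CPM, but the log2 fold change of -0.45 (95% interval -1.22 to 0.32, edgeR adjusted p 0.269) did not pass the test. The intervals of Cubn and Amn each hold 0, and neither shows that the gene stayed the same.

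**Figure D2:**
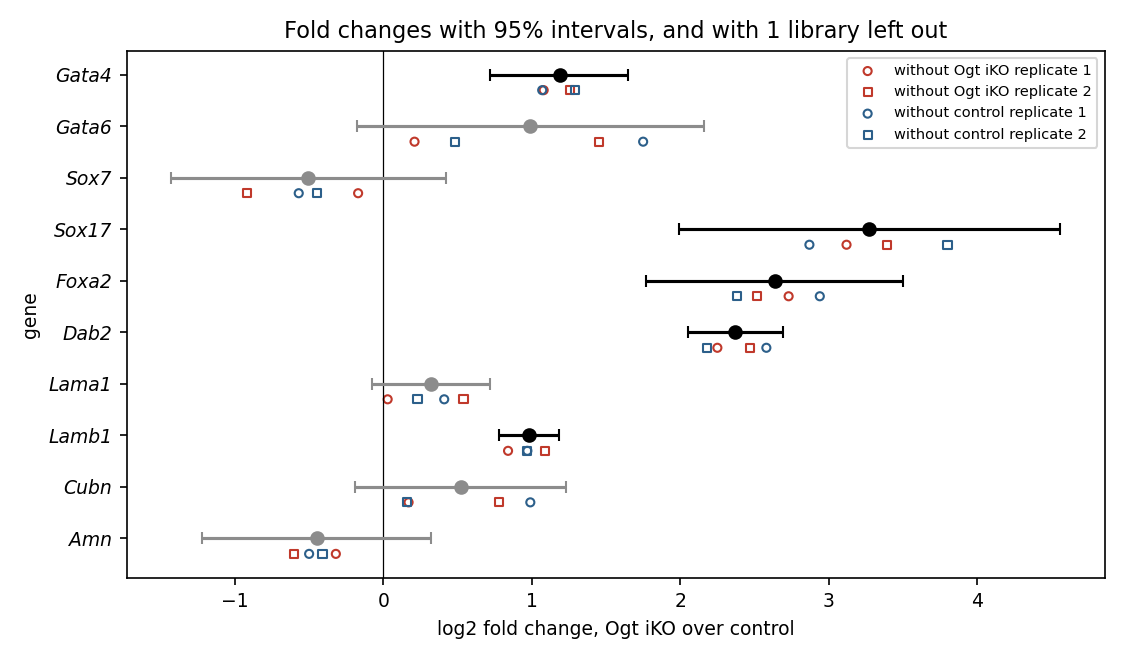
Log2 fold change of each gene (Ogt iKO over control) with its 95% interval from edgeR (filled circles, black where the adjusted p was under 0.05, grey otherwise), and below each the value with 1 library left out (open symbols). The 5 called genes stay above 0 throughout, which follows from both Ogt iKO libraries lying above both controls (as for 42.3% of all tested genes). Dab2 lies between 2.18 and 2.58, while Gata6 ranges from 0.21 to 1.75.

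The levels per kb of exon ordered the genes in the controls as Lamb1 (16.8 CPM per kb), Lama1 (1.80), Dab2 (1.69), Gata4 (0.790), Amn (0.616), Cubn (0.273), Sox7 (0.266), Gata6 (0.154), Foxa2 (0.137) and Sox17 (0.0204). Lama1 and Dab2 overlapped between the control libraries, as did Cubn with Sox7 and with Gata6, and Gata6 with Foxa2. In Ogt iKO the order began with Lamb1 (33.2 CPM per kb) and Dab2 (8.76), followed by Lama1 (2.24) and Gata4 (1.80), which overlapped. Foxa2 came next at 0.870, ahead of Amn (0.451), Cubn (0.392), Gata6 (0.305), Sox17 (0.211) and Sox7 (0.188), and each neighbouring pair from Amn to Sox7 overlapped. Dab2 thus went from a level near that of Lama1 to one well above it, and Foxa2 from the ninth place to the fifth.

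The fibroblast markers were set beside these changes, because fibroblasts also make laminins and DAB2, and feeder cells were present in the cultures. In Ogt iKO replicate 2, which had less fibroblast RNA than either control for 16 of the 20 markers, 5 of the 10 primitive endoderm lineage genes were above both controls, and these were the 5 called genes. Of all tested genes 45.9% were above both controls in that library. The 5 calls rest on this library and the same controls too, so the match is not separate evidence. Col1a1, the marker with the highest mean over all libraries, had 904 CPM in Ogt iKO replicate 1 and 179.5 CPM in replicate 2, against 294 and 314 CPM in the controls. In replicate 2 Tagln was above it, at 222 CPM. Relative to the control mean, Dab2 was higher by 2.49 in replicate 1 and by 2.24 in replicate 2 on the log2 scale, and Foxa2 by 2.57 and 2.76. Gata6 was higher by 1.48 and 0.21, Cubn by 0.81 and 0.16 and Lama1 by 0.57 and 0.023, so these 3 genes were mostly higher in the library rich in fibroblast RNA, and the part of that RNA in their values was not tested. Without Ogt iKO replicate 1 the same 5 genes were called higher (30.3% of all genes tested in that fit). Without Ogt iKO replicate 2 Gata6, Lama1 and Cubn joined them, making 8 (32.1% of all genes in that fit). Without control replicate 1 Gata6 and Cubn joined, making 7 (26.3% of all genes), and without control replicate 2 the 5 remained (26.5% of all genes). Of the fibroblast list 4 of 20 genes were called higher and 0 lower in the fit of all libraries, beside 33.2% and 32.0% of all tested genes. They were led by Tagln (log2 fold change 2.60), Acta2 (1.72) and Twist1 (1.45), which lay above both controls in both Ogt iKO libraries. Of the exon bases of Tagln 67.9% lie under exons of the opposite strand. The count was 18 higher without Ogt iKO replicate 2, and 16 lower without Ogt iKO replicate 1. None of the 20 markers was at 0 in every library. Thy1, which encodes CD90, had a log2 fold change of 0.15 (edgeR adjusted p 0.740), and -0.80 without Ogt iKO replicate 1 (edgeR adjusted p 0.000321).

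**Figure D3:**
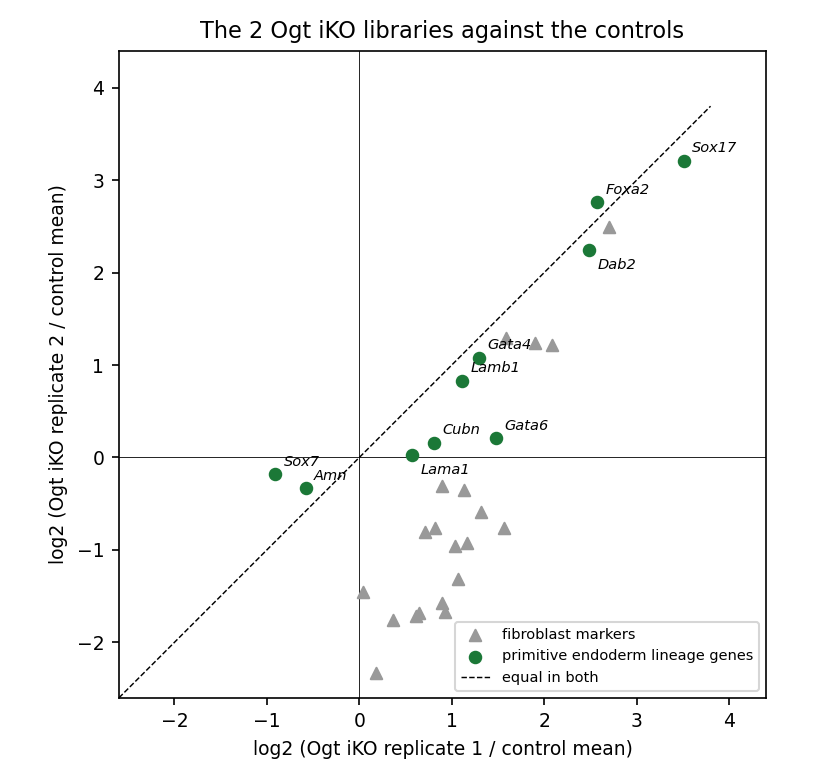
Log2 ratio of each Ogt iKO library to the mean of the 2 controls (CPM), replicate 1 across and replicate 2 up, for the 10 primitive endoderm lineage genes (circles) and 20 fibroblast markers (triangles). Sox17, Foxa2, Dab2, Gata4 and Lamb1 lie near the dashed line of equal values, and 16 fibroblast markers lie below 0 in replicate 2.

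Upstream of the lineage, the list of 9 signalling genes had 3 called higher and 3 lower, with a median log2 fold change of 0.11. Of all tested genes 33.2% were called higher and 32.0% lower. Fgf4, the ligand that epiblast cells send to primitive endoderm precursors, fell by 1.49 on the log2 scale (edgeR adjusted p 8.41e-06). Its receptor gene Fgfr2 rose by 0.79 (edgeR adjusted p 6.44e-05) and Pdgfa, the ligand of the receptor PDGFRA, by 1.43 (edgeR adjusted p 4.34e-06). Of the exon bases of Pdgfa 26.1% lie under an exon of the opposite strand. Pdgfra, a standard surface marker of primitive endoderm and also of fibroblasts, had 185 and 75 counts in Ogt iKO, compared with 99 and 112 in control, with a log2 fold change of 0.20 (edgeR adjusted p 0.607). That value was -0.50 without Ogt iKO replicate 1, and without Ogt iKO replicate 2 it was 0.64 (edgeR adjusted p 0.00830). Nanog, the opponent of Gata6, fell from 239.6 and 245 CPM in control to 84.5 and 91.0 CPM in Ogt iKO (log2 fold change -1.47, edgeR adjusted p 9.96e-07).

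Among 10 other endoderm transcription factors, 7 were tested, 4 were higher and 2 were lower, beside 33.2% and 32.0% of all tested genes. Foxa1, a forkhead paralog of Foxa2, rose by 2.01 (edgeR adjusted p 0.000279), and Eomes, a T-box factor of mesendoderm and trophoblast, by 1.23 (edgeR adjusted p 9.05e-05). Otx2, which acts in epiblast and anterior visceral endoderm, fell by 1.37, and Sall4, the most abundant of the list, by 0.42. Hnf4a, a nuclear receptor of the visceral endoderm program, was too low to test, with 2 and 1 counts in Ogt iKO beside 3 and 9 in the controls. DESeq2 called 2 of this list higher, and 24.8% of all tested genes.

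Products of the mature lineages were mixed. Of 22 visceral endoderm genes 16 were tested, of which 9 were higher and 3 lower, beside 33.2% and 32.0% of all tested genes. The median log2 fold change of the list was 0.59. Lrp2, which encodes megalin, the partner of cubilin and cargo of DAB2, had 595 and 482 CPM in Ogt iKO and 123 and 141 CPM in control (log2 fold change 2.03, edgeR adjusted p 2.58e-06). Tcn2, a carrier of vitamin B12, rose by 1.66, and the folate receptor Folr1 by 0.71. Apoe was the most abundant gene of this list on the mean of all libraries, but in Ogt iKO its mean of 504 CPM was below the 539 CPM of Lrp2. The log2 fold change of Apoe was 0.17 (edgeR adjusted p 0.123). It was 0.31 without Ogt iKO replicate 1, and Apoe was called with library totals alone (0.34). Ttr and Apoa4 had 0 counts in every library, which allows up to 3 counts in each, and Afp had 4 and 1 counts in Ogt iKO, compared with 0 and 1 in control.

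Of 8 parietal endoderm genes 4 were higher and 0 lower, beside 33.2% and 32.0% of all tested genes. Krt19, a keratin of simple epithelia, rose by 2.35, Fst, which encodes the activin antagonist follistatin, by 2.19, and the repressor Snai1 by 1.86. The count of higher genes in this list was 7 without Ogt iKO replicate 2, and 1 was lower without Ogt iKO replicate 1. Of 6 anterior visceral endoderm genes 5 were tested, with 1 higher (Lhx1, log2 fold change 2.37) and 2 lower (Lefty1 at -0.88 and Otx2). The count of higher genes was 2 without Ogt iKO replicate 1 or without control replicate 1. Lhx1 rested on 19 and 15 counts against 4 and 2, and was not called by DESeq2 (adjusted p 0.0567). It passed the filter on low counts only through the Ogt iKO libraries, so it could enter the test only by being higher there, also where it is counted in other lists.

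Of 13 basement membrane genes 9 were higher and 1, Lamc1, was lower, beside 33.2% and 32.0% of all tested genes. In alternatives that kept all libraries the count of higher genes ran from 6 to 10. With 1 library left out the median log2 fold change of the list ran from 0.28 to 0.61, beside 0.53 with all libraries. Serpinh1, the collagen chaperone, rose by 0.89, Lama5 by 0.86 and Itgb1, a subunit of laminin receptors, by 0.53. Dag1, the dystroglycan gene, rose by 0.22, but was not called without control replicate 2. Sparc had 812 and 565 CPM in Ogt iKO against 379.9 and 399 CPM in control (log2 fold change 0.82, edgeR adjusted p 0.000963). It was 0.54 without Ogt iKO replicate 1 (edgeR adjusted p 8.78e-07), and Sparc was not called with edgeR's robust spread (adjusted p 0.0831). Col4a1 had 131 and 75.3 CPM against 67.8 and 70.5 CPM. Its log2 fold change of 0.58 was called (edgeR adjusted p 0.0348), but was 0.13 without Ogt iKO replicate 1 (edgeR adjusted p 0.224) and 0.89 without Ogt iKO replicate 2, and it was also not called without either control library or by DESeq2 (adjusted p 0.205). Col4a2 was not called (0.63, edgeR adjusted p 0.0621) but was called at 1.02 without Ogt iKO replicate 2, and was at 0.031 without Ogt iKO replicate 1 (edgeR adjusted p 0.810). All 13 genes were higher in Ogt iKO replicate 1 than in replicate 2, as the fibroblast markers were, and the part of fibroblast RNA in this list was not tested. Of 11 genes of clathrin endocytosis, partners of DAB2, 6 were higher and 4 lower. The AP-2 subunit genes diverged, with Ap2b1 at 0.67 and Ap2a1 at -0.92, the endocytic scaffold Itsn1 was lower by 0.72 on the log2 scale and Cltc, the clathrin heavy chain, higher by 0.27. Reads of Ap2a1 may be shared with Fuz on the opposite strand, which covers 16.7% of its exon bases.

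Markers of other cells that use the same factors were examined in the same way. Of all tested genes 33.2% were called higher and 32.0% lower (24.8% and 27.0% with DESeq2). Of 7 mesendoderm markers 6 were tested and 5 were higher, among them Foxa1, Eomes and Lhx1, (3 without Ogt iKO replicate 2 or without control replicate 2, and 2 by DESeq2), and summed levels were 32.0 and 34.1 CPM in Ogt iKO against 16 and 14.2 CPM in control. Of 7 trophectoderm markers 6 were tested and 4 were higher, with Krt7 at 2.93 and Gata3 at 2.36. Tead4, the most abundant on the mean of all libraries though below Eomes in both Ogt iKO libraries, was not called (0.15). Summed levels of the trophectoderm markers were 61.8 and 59.0 CPM against 28.0 and 28.7 CPM. Of 6 endothelial markers, listed because Sox7 and Sox17 are active in vessels, 5 were tested and 3 were higher. They were Tek (log2 fold change 2.00), Flt1 (1.37) and Cdh5 (1.69, not called by DESeq2 or without Ogt iKO replicate 1 or either control), and Cdh5 passed the filter only through the Ogt iKO libraries. Summed levels were 40.5 and 42.9 CPM against 12.0 and 14.3 CPM. Of 5 cardiac markers 2 were tested, with Nkx2-5 higher by 1.46 and Myl7 lower by 1.84 on the log2 scale. Myl7 (8 and 4 counts, beside 20 and 21 in the controls) passed the filter only through the control libraries, and DESeq2 did not call it (adjusted p 0.0702). None of these 4 lists had a marker at 0 in all libraries, but Elf5 and Emcn had at most 3 counts in each. Of the 10 stem cell markers 9 were lower and 0 higher, led by Klf4 (-1.82), Sox2 (-1.59) and Nanog, with Tdgf1, the most abundant, at -1.13. Epcam, which encodes CD326, was at -0.20, and was not past the threshold with library totals alone (-0.035), with upper-quartile scaling (-0.16) or without control replicate 1 (-0.12). The lists share Eomes, Foxa1, Lhx1, Otx2 and Hhex. In bulk RNA such as this, more cells of a type and more RNA of its genes per cell cannot be told apart.

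**Figure D4:**
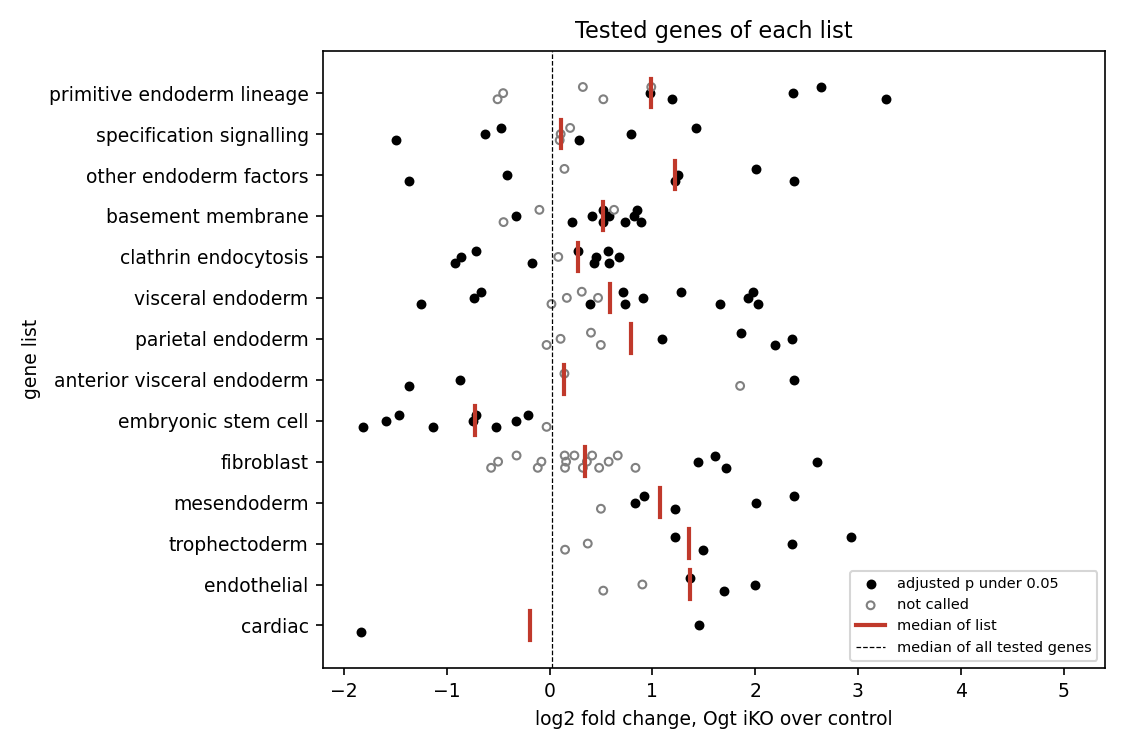
Log2 fold change (Ogt iKO over control) of every tested gene of each list, filled where the adjusted p was under 0.05 (edgeR), with the median of the list in red and that of all tested genes (0.024) dashed. The primitive endoderm lineage genes have a median of 0.98, and 9 of the 10 stem cell markers were called lower.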

How the data were processed

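Polyadenylated RNA of 4 libraries was measured, 2 Ogt iKO and 2 control, and titles gave the groups. The authors deposited raw counts per gene symbol, with no normalization. STAR, Picard and the build mm10 are named in the submitters' processing notes, and versions, annotation and the strand counted are not given in the sources used here. Rows that name no gene numbered 0. Counts were tested with edgeR 4.0.16 under R 4.3.3 (TMM, quasi-likelihood, filterByExpr with a minimum count of 10, no covariate) over 14525 genes, with calls at an adjusted p under 0.05 (Benjamini-Hochberg). The code was tested on simulated data. An exact permutation test of a single gene, 2 libraries against 2, cannot go below 0.333. Standard errors and 95% intervals were derived from each fold change and the F statistic. Alternatives were relative log expression (RLE) factors, library totals, upper quartiles, DESeq2 1.42.0, 2 other filters, a robust spread, a replicate block, a prior count of 2, an adjusted p under 0.01 and leaving out each library. The members and lists were chosen with earlier results of these data known. Named are all members, Ogt, up to 3 genes per list by adjusted p and the most abundant of each list (by mean CPM over all libraries). Pdgfra, Hnf4a, Lamc1, Lrp2, Col4a1, Col4a2, Sparc, Nanog, Epcam and Thy1 are named too. Afp, Ttr, Apoa4, Elf5 and Emcn were added after their counts were seen. Some genes that this rule names are not reported here. Positions came from RefSeq (GRCm38.p6, the assembly of mm10), and exon bases from GENCODE M21. Depth limits genes of a few counts, and intervals cover counting error only where so stated, since no molecular identifiers are named in the labels.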

Additional observations from a re-analysis of the deposited data

How the results depend on the processing

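Leaving out each library in turn gave 5 to 8 genes of the primitive endoderm lineage called higher and 0 lower. In those fits a group of 1 library is assumed to vary like the other group. The log2 fold changes ran from 0.21 to 1.75 for Gata6, 0.029 to 0.54 for Lama1, 0.16 to 0.99 for Cubn, -0.92 to -0.17 for Sox7, 0.031 to 1.02 for Col4a2, -0.50 to 0.64 for Pdgfra, -0.0011 to 0.31 for Apoe, -0.75 to 1.55 for Col1a1, -0.80 to 0.69 for Thy1 and -0.0061 to 0.31 for Tead4. The fibroblast median ran from -0.86 to 0.96, with 4 to 18 genes called higher and 0 to 16 lower. The calls of Sox17, Foxa2, Dab2, Gata4 and Lamb1 and of Ogt held in all alternatives that gave a value. Sox17 and Sox7 were not tested with the filter of 1 CPM in 2 or more libraries, where 4 genes were called (33.9% of all genes in that fit). With a prior count of 2, Sox17 was at 2.35 and Foxa2 at 2.28. The replicate numbers share no stated source, and deviations of same-numbered libraries correlated at 0.0764 across genes. With the replicate block 8 genes were called, Gata6 (0.98), Lama1 (0.31) and Cubn (0.53) being added, while 33.9% of all genes were called higher. With library totals Lama1 was called (0.49) and 65.1% of all called genes were higher, against 50.9%, and the median over all genes moved from 0.024 to 0.19. With totals the signalling list had 5 genes higher (3 in the reported fit), the basement membrane list 0 lower (1) and the anterior visceral list 2 higher (1). With DESeq2 the lists of other endoderm factors and mesendoderm had 2 higher each (4 and 5), the anterior visceral list 0 higher and the cardiac list 0 lower (1). Without Ogt iKO replicate 1 the basement membrane list had 2 lower, the parietal list 1 lower and the anterior visceral list 2 higher. Without Ogt iKO replicate 2 mesendoderm had 3 higher and the cardiac list 2 (1). With the block the basement membrane list had 2 lower, the anterior visceral list 2 higher and the fibroblast list 1 lower (0). At an adjusted p under 0.01 mesendoderm had 3 higher. The anterior visceral median changed sign to -0.36 (from 0.15) with the CPM filter. Acta2 and Col4a1 were not called with the robust spread, and Col4a2 was called with RLE factors, totals, upper quartiles and the block. Except where a cause is plain from fewer genes or libraries, the cause was not tested.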
